A study of Homo sapiens with 60 samples.

Results

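The 4 HEK293-EBNA1-6E cell lines that lack ALG6 were each set against the same wild-type (WT) cells, and the genes described here are those that stood on one side of WT in all of them. A gene was taken as shared when the 4 line means lay on one side of the WT mean and each of the 12 ALG6-lacking libraries lay outside the range of the 3 WT libraries on that side. Of 14692 genes tested, 343 met this rule (2.33%). Of these, 65 were higher than WT in all 12 libraries (0.442% of the genes tested) and 278 were lower (1.89%).

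HEK293-EBNA1-6E cells are human embryonic kidney cells that carry a viral nuclear antigen and are widely used to make recombinant protein. RNA was sequenced from 3 biological replicates of each of 5 lines after 48 hours of culture. The lines were ALG6-/-, the double knockouts ALG6/UGGT1-/- and ALG6/UGGT2-/-, the triple knockout ALG6/UGGT1/UGGT2-/- and WT, and no drug was named for any of them. Per the study's methods, the knockout lines were made by transfecting guide plasmids with a Cas9-GFP plasmid, sorting GFP-bearing cells and growing out single colonies, with 1 ALG6 guide plasmid common to all 4 lines. Each genotype was therefore 1 clonal line, whereas WT was the parental line. Loss of ALG6 cannot be told apart from editing and cloning in a comparison of these lines with WT, and whether the lines with several deletions were grown from the ALG6-/- clone is not given in the sources used here. All 4 comparisons share the 3 WT libraries, so an unusual WT value moves all of them alike.

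ALG6 encodes the glucosyltransferase of the endoplasmic reticulum (ER) that adds the first glucose to the lipid-linked oligosaccharide from which N-glycans are transferred to proteins. Without it, proteins receive glycans that carry no glucose. A single glucose is the tag read by the lectin chaperones calnexin and calreticulin, and UGGT1 and UGGT2 put it back onto glycoproteins that are not yet folded. In cells without ALG6 the UGGTs are the route by which a glycan can gain that tag, and the 4 lines differ in which UGGT remains.

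The line labels were checked first on the targeted gene. Values are in CPM, read counts scaled by the authors to the same total in every library. ALG6 (chromosome 1, GRCh38) had 1.29, 1.1 and 1.03 CPM in ALG6-/-, 2.27, 2.69 and 3.66 CPM in ALG6/UGGT1-/-, 3.55, 4.59 and 5.87 CPM in ALG6/UGGT2-/- and 2.83, 3.24 and 2.81 CPM in the triple knockout, against 15.6, 14.6 and 12.7 CPM in WT. All 12 ALG6-lacking libraries were far below WT, so ALG6 was itself a shared gene, with a mean difference of -2.24 ± 0.14 (SE, log2; limma adjusted p = 1.4e-06). UGGT1 had 83.9, 13.1 and 34.4 CPM in ALG6-/-, 18, 27.7 and 28.9 CPM in ALG6/UGGT1-/-, 59.5, 77 and 77.6 CPM in ALG6/UGGT2-/- and 33.1, 31 and 31 CPM in the triple knockout, against 78.2, 79.8 and 43.1 CPM in WT. The lines lacking UGGT1 lay below WT, while ALG6-/- spread across and beyond the WT range. UGGT2 had 7.5 to 20.2 CPM in the ALG6-lacking libraries and 12.8 to 22.8 CPM in WT, with overlap. Neither UGGT1 (limma adjusted p = 0.175) nor UGGT2 (limma adjusted p = 0.299) passed the test of the 4 lines against WT. With length and GC content fitted out of each library, UGGT1 was called lower, at -0.74 (log2; limma adjusted p = 0.00246), as it was without ALG6-/- replicate 1 (limma adjusted p = 0.0185). UGGT2 was also called lower under the length and GC fit, at -0.25 (limma adjusted p = 0.0334), and without WT replicate 3 and ALG6-/- replicate 2, at -0.50 (limma adjusted p = 0.0492).

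Libraries of a line differed in how their values ran with transcript length and GC content, most of all in ALG6-/-. Median deviations of the GC-richest 25% of genes exceeded those of the GC-poorest 25% by 1.5 (log2) in ALG6-/- replicate 2, beside 0.19 and 0.61 in its replicates, and by 0.39 in WT replicate 3, beside -0.32 and -0.11 in the other WT libraries. Replicate 1 also differed from its replicates in ALG6/UGGT2-/-, at 0.16 beside -0.35 and -0.54, and in ALG6/UGGT1-/-, at -0.21 beside -0.58 and -0.61. Depth was similar in all libraries, at an estimated 23600000 to 27200000 reads. Without WT replicate 3, 160 genes were higher and 726 lower in all 12 ALG6-lacking libraries, against 65 and 278 with it. The counts were 86 and 386 without WT replicate 1, and 85 and 306 without WT replicate 2. Leaving out a WT library narrows the WT range or leaves it unchanged, so these counts could not fall. Of 21 markers of blood, endothelial, liver, stromal, epithelial and muscle cells, 13 stayed under 1 CPM in every library, PTPRC, CD3E, ALB and PECAM1 among them, and HBB was at 0 throughout. Their summed level was 76.1 to 123 CPM in the ALG6-lacking libraries and 92.4 to 108 CPM in WT. The 25 kidney and HEK293 markers summed to 974 to 1960 CPM in the ALG6-lacking libraries and 1108 to 1147 CPM in WT. KRT8, KRT18 and VIM were present throughout, whereas the kidney markers CDH6, CDH16 and KRT19 were at or near 0.

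Limma called 885 genes higher (6.02% of those tested) and 2408 lower (16.4%) in the mean of the 4 lines against WT, at an adjusted p under 0.05. Of these 3293 genes, 339 (10.3%) were shared, and for the other 2954 at least 1 ALG6-lacking library overlapped the WT range or fell on its other side. The rule and the contrast use the same libraries, so their overlap is no independent evidence. The 4 lines also differed widely from each other. An F test over the 4 line means, in which the WT mean took no part, called 12120 genes (82.5%). It called 51 of the 65 shared higher genes (78.5%) and 212 of the 278 shared lower genes (76.3%), shares near that of all genes.

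Most shared differences were small. The smallest difference over the 4 lines had a median of 0.27 (log2) among the shared higher genes and -0.29 among the shared lower genes. At least 2-fold in every line was reached by 3 higher genes (ID1, ID3 and GMEB1) and 5 lower genes (TEX14, ALG6, MYOM2, FAM225A and AC018730.1), and at least 1.5-fold by 5 higher and 27 lower genes. FRG1 lay just inside the rule on the higher side and ATP6AP1 just outside it. On the lower side ZNF783 lay just inside and PPIP5K1 just outside. In bulk RNA, less RNA per cell and fewer cells that express a gene cannot be told apart.

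The largest shared increases were those of ID1 and ID3. Both encode small helix-loop-helix proteins that bind basic helix-loop-helix transcription factors and keep them off DNA, and both are classic targets of bone morphogenetic protein (BMP) signalling. ID3 was at 198, 259 and 217 CPM in ALG6-/-, 77.7, 70.6 and 73 CPM in ALG6/UGGT1-/-, 85.8, 79.1 and 76 CPM in ALG6/UGGT2-/- and 77.3, 77.6 and 79.3 CPM in the triple knockout, against 24, 23 and 29.1 CPM in WT. The 3 lines with a UGGT deletion lay close together and clear of WT, and ALG6-/- lay far above them. The mean of the 4 lines differed from WT by 1.98 ± 0.08 (SE, log2; limma adjusted p = 7.7e-08). ID1 kept ALG6-/- on top, with 34.3, 42.6 and 39.4 CPM in ALG6-/-, 8.77, 7.05 and 7 CPM in ALG6/UGGT1-/-, 7.79, 6.14 and 6.1 CPM in ALG6/UGGT2-/- and 11.5, 10.9 and 12.5 CPM in the triple knockout, against 2.77, 2.68 and 2.39 CPM in WT. Its mean difference was 2.05 ± 0.10 (SE, log2; limma adjusted p = 2.2e-07), and no ALG6-lacking library came near the WT range. Both genes differed among the 4 lines beyond the replicate spread (F test, limma adjusted p = 1.1e-07 for ID3 and 2.8e-08 for ID1).

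**Figure D1:**
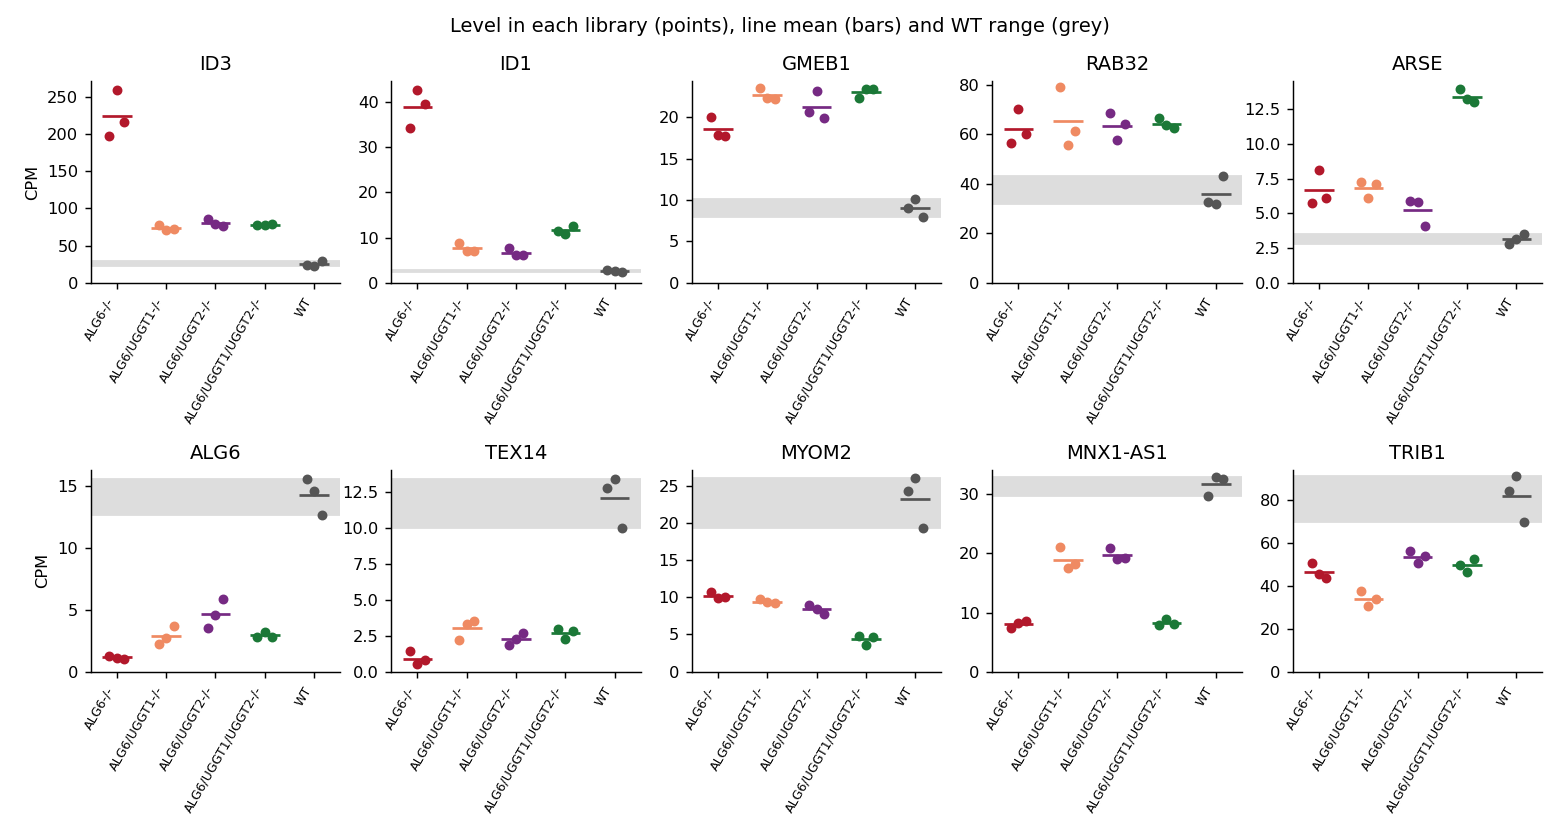
Level of 10 shared genes in CPM, with a point for each library, a bar for the mean of each line and a grey band for the range of the 3 WT libraries. The upper row holds genes higher than WT in all 12 ALG6-lacking libraries and the lower row genes that were lower, and ID3 reaches 198 to 259 CPM in ALG6-/-, against 23 to 29.1 CPM in WT.

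GMEB1 and RAB32 differed from WT by similar amounts in each line. GMEB1, a DNA-binding protein that modulates transcription by the glucocorticoid receptor, had 20.03, 17.9 and 17.7 CPM in ALG6-/-, 23.6, 22.3 and 22.2 CPM in ALG6/UGGT1-/-, 20.6, 23.1 and 19.9 CPM in ALG6/UGGT2-/- and 22.3, 23.4 and 23.4 CPM in the triple knockout, against 9.05, 10.2 and 7.94 CPM in WT. Its line differences were 1.00, 1.29, 1.19 and 1.31 (log2) in that order, and its mean difference 1.20 ± 0.08 (SE, log2; limma adjusted p = 1.9e-06). RAB32, a small GTPase of traffic to lysosome-related organelles, had 56.6, 70.01 and 60.1 CPM in ALG6-/-, 79.1, 55.6 and 61.3 CPM in ALG6/UGGT1-/-, 68.5, 57.7 and 64.3 CPM in ALG6/UGGT2-/- and 66.5, 63.8 and 62.4 CPM in the triple knockout, against 32.7, 32 and 43.2 CPM in WT. Its line differences were 0.79, 0.85, 0.82 and 0.84 (log2), and it was not called as different among the lines (F test, limma adjusted p = 0.977).

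Genes of sterol metabolism were also among the shared higher genes. IDI1, the isopentenyl diphosphate isomerase of the sterol pathway, was at 23.9 to 34.3 CPM (median 25.5) in the 12 ALG6-lacking libraries, against 17.5, 19.3 and 18 CPM in WT. SREBF2, the transcription factor that drives cholesterol synthesis, was at 349.9 to 501 CPM (median 427) in the 12 ALG6-lacking libraries, against 328, 332 and 312 CPM in WT. Its line differences were small, at 0.53, 0.16, 0.26 and 0.59 (log2). SREBF2 was not shared after median ratio rescaling or under the length and GC fit, and IDI1 was not shared under the latter.

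The other shared higher genes with the largest smallest-line difference had varied roles. ARSE, a sulfatase of the secretory pathway, was at 4.08 to 14 CPM (median 6.62) in the 12 ALG6-lacking libraries, against 2.81, 3.19 and 3.51 CPM in WT, and was highest in the triple knockout. EMC10, a subunit of the complex that inserts membrane proteins into the ER, was at 167 to 253 CPM (median 203) in the 12 ALG6-lacking libraries, against 118, 127 and 156 CPM in WT. A4GALT, which makes the glycolipid Gb3 in the Golgi, was at 4.53 to 11.3 CPM (median 6.54) in the 12 ALG6-lacking libraries, against 3.54, 3.42 and 3.75 CPM in WT. These 3 genes serve the secretory pathway, and each stood only a little clear of WT in its lowest library. ARSE was not shared after median ratio rescaling or quantile normalization. EMC10 was not shared after median ratio rescaling or the length and GC fit, nor A4GALT after quantile normalization. F10, the coagulation zymogen factor X, was at 7.96 to 14.6 CPM (median 9.73) in the 12 ALG6-lacking libraries, against 6.71, 5.83 and 6.19 CPM in WT. PCLAF, a partner of the replication clamp PCNA, was at 26.3 to 52.3 CPM (median 39.1) in the 12 ALG6-lacking libraries, against 21.9, 20.9 and 20.5 CPM in WT. GATA3, a transcription factor of the early kidney, was at 19.8 to 29.8 CPM (median 25.3) in the 12 ALG6-lacking libraries, against 18.7, 18.9 and 13.4 CPM in WT, so that the highest WT library lay close to the lowest ALG6-lacking one. RBX1, the RING subunit of cullin ubiquitin ligases, was at 42.3 to 62.9 CPM (median 49.2) in the 12 ALG6-lacking libraries, against 32.6, 33.3 and 38 CPM in WT. ARHGEF5, a guanine nucleotide exchange factor, was at 35.3 to 61.7 CPM (median 53.8) in the 12 ALG6-lacking libraries, against 26.7, 27 and 26.7 CPM in WT. Its near copy ARHGEF35 was at 3.62 to 11 CPM (median 9.15) in the 12 ALG6-lacking libraries, against 2.78, 3.46 and 2.49 CPM in WT, and both values are uncertain because reads may have been split between them.

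**Figure D2:**
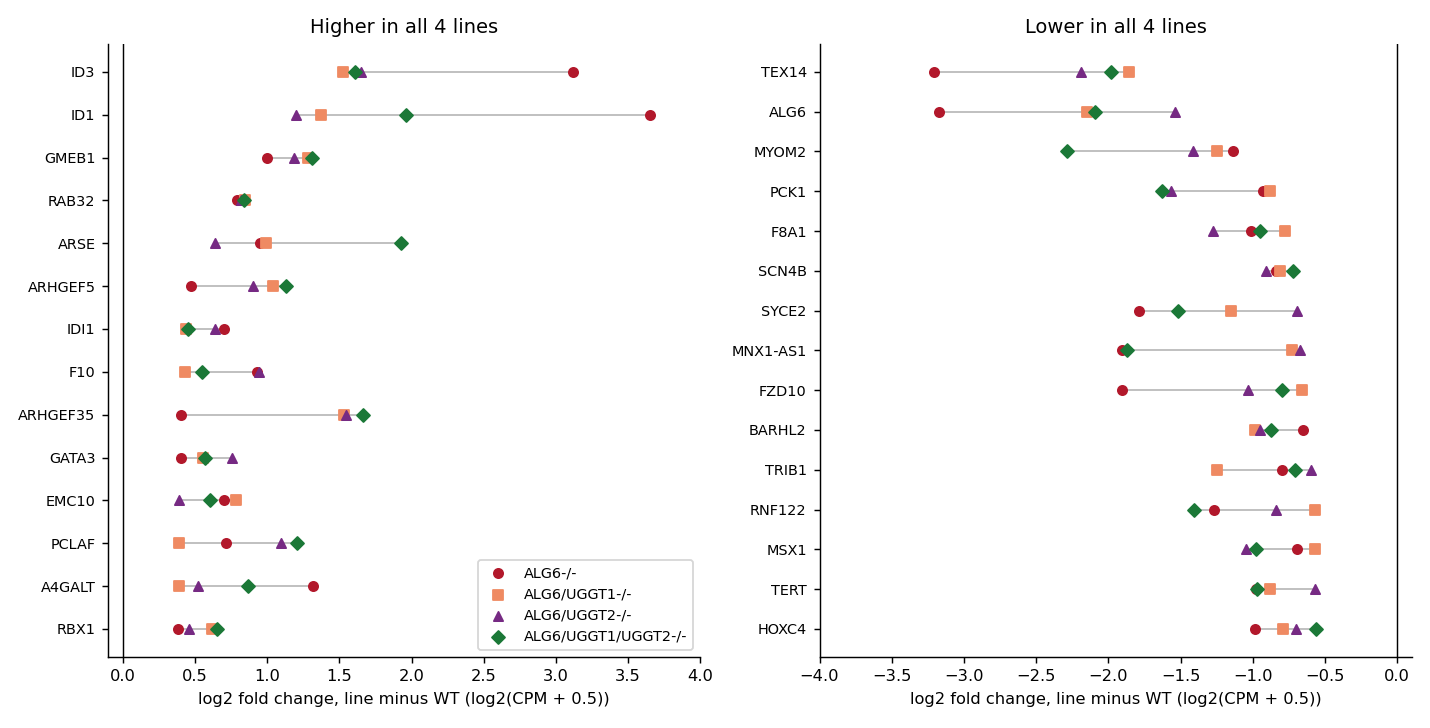
Difference of each ALG6-lacking line from WT, as log2 fold change on log2(CPM + 0.5), for shared genes named by the largest smallest-line change; each symbol is the mean of 3 libraries of 1 line and the grey line spans the 4 lines. The 4 lines nearly coincide for RAB32, at 0.79 to 0.85, whereas ID1 runs between 1.20 in ALG6/UGGT2-/- and 3.65 in ALG6-/-.

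On the lower side, TEX14 and ALG6 fell furthest. TEX14, a protein of the bridges between germ cells, had 1.41, 0.509 and 0.786 CPM in ALG6-/-, 2.18, 3.35 and 3.5 CPM in ALG6/UGGT1-/-, 1.83, 2.25 and 2.72 CPM in ALG6/UGGT2-/- and 2.94, 2.3 and 2.81 CPM in the triple knockout, against 12.8, 13.4 and 10.02 CPM in WT. No ALG6-lacking library came near WT, and the mean difference was -2.31 ± 0.18 (SE, log2; limma adjusted p = 7.3e-06). MYOM2, a protein of the muscle M-band, had 10.7, 9.96 and 9.97 CPM in ALG6-/-, 9.73, 9.31 and 9.19 CPM in ALG6/UGGT1-/-, 8.94, 8.43 and 7.73 CPM in ALG6/UGGT2-/- and 4.74, 3.62 and 4.72 CPM in the triple knockout, against 24.3, 26 and 19.4 CPM in WT. The triple knockout was the lowest of the lines, and the mean difference was -1.52 ± 0.10 (SE, log2; limma adjusted p = 1.9e-06).

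MNX1-AS1, an RNA antisense to the motor neuron homeobox gene MNX1, had 7.43, 8.22 and 8.64 CPM in ALG6-/-, 21, 17.5 and 18.3 CPM in ALG6/UGGT1-/-, 20.9, 19 and 19.3 CPM in ALG6/UGGT2-/- and 7.9, 8.9 and 8.07 CPM in the triple knockout, against 29.7, 32.9 and 32.5 CPM in WT. ALG6-/- and the triple knockout shared the lower level and the double knockouts lay between them and WT. MNX1 was at 53 to 88.8 CPM (median 60.1) in the 12 ALG6-lacking libraries, against 99.6, 109 and 107 CPM in WT. The library kit keeps the strand but whether counting used it is not given in the sources used here, so reads of the 2 genes may not be separate. MSX1, a homeobox repressor, was at 41.2 to 61.3 CPM (median 49.1) in the 12 ALG6-lacking libraries, against 88, 91.8 and 86.4 CPM in WT. Its relative MSX2 went the other way, at 30.7 to 45.6 CPM (median 37.7) in the 12 ALG6-lacking libraries, against 26, 26.7 and 24.9 CPM in WT. HOXC4, a homeobox gene of trunk patterning, was at 14.3 to 23.4 CPM (median 20.1) in the 12 ALG6-lacking libraries, against 34.1, 39 and 28.8 CPM in WT. BARHL2, a homeobox gene of the nervous system, was at 4.28 to 6.66 CPM (median 5.07) in the 12 ALG6-lacking libraries, against 10.8, 10.4 and 8.14 CPM in WT. FZD10, a Wnt receptor, was at 2.97 to 10.8 CPM (median 8.27) in the 12 ALG6-lacking libraries, against 17.2, 18.3 and 13.8 CPM in WT. MNX1 and MSX2 were named after their values were seen, the others by the size of the smallest-line difference.

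The remaining lower genes of that size rule had unrelated roles. TRIB1, a pseudokinase that brings substrates to the ubiquitin ligase COP1, was at 30.4 to 56.1 CPM (median 48.1) in the 12 ALG6-lacking libraries, against 84.2, 90.9 and 69.4 CPM in WT. RNF122, a ubiquitin ligase, was at 35.2 to 67.2 CPM (median 46.2) in the 12 ALG6-lacking libraries, against 91.4, 96 and 96 CPM in WT. TERT, the catalytic subunit of telomerase, was at 2.81 to 4.51 CPM (median 3.45) in the 12 ALG6-lacking libraries, against 6.8, 8.98 and 5.15 CPM in WT, and was not called as different among the lines (F test, limma adjusted p = 0.122). PCK1, the cytosolic enzyme of gluconeogenesis, was low in all cells, at 1.11 to 3.1 CPM (median 2.04) in the 12 ALG6-lacking libraries, against 5.91, 6.42 and 4.55 CPM in WT. SYCE2, of the meiotic synaptonemal complex, was at 0.767 to 3.82 CPM (median 1.97) in the 12 ALG6-lacking libraries, against 6.27, 5.31 and 6.03 CPM in WT. SCN4B, a sodium channel subunit, was at 3.56 to 4.99 CPM (median 4.25) in the 12 ALG6-lacking libraries, against 7.68, 7.99 and 7.98 CPM in WT, with line differences of -0.84, -0.81, -0.91 and -0.72 (log2) and no call among the lines (F test, limma adjusted p = 0.52). F8A1 was at 2.07 to 4.24 CPM (median 2.87) in the 12 ALG6-lacking libraries, against 6.09, 6.27 and 6.36 CPM in WT, and is uncertain because it has near-identical copies. TSC22D3, a leucine zipper protein induced by glucocorticoids and picked after its values were seen, had 1227, 1358 and 1321 CPM in ALG6-/-, 482, 385 and 390.4 CPM in ALG6/UGGT1-/-, 821, 753 and 667 CPM in ALG6/UGGT2-/- and 473, 442 and 459.7 CPM in the triple knockout, against 1759, 1839 and 1882 CPM in WT. It was far more abundant than the others, and ALG6-/- was the line nearest WT.

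Among the shared genes with the widest differences between lines, ALG6-/- was often the extreme. DDIT4, a stress-induced inhibitor of mTORC1, had 79.3, 92 and 85.6 CPM in ALG6-/-, 171, 155 and 160.0 CPM in ALG6/UGGT1-/-, 332, 306 and 294 CPM in ALG6/UGGT2-/- and 190.4, 178 and 179.9 CPM in the triple knockout, against 335, 369 and 374 CPM in WT. ALG6-/- was lowest and ALG6/UGGT2-/- came just under the WT range. SNHG15, a host gene of small nucleolar RNAs, was at 39.6 to 50.2 CPM in ALG6-/- and 115 to 197 CPM in the other 3 lines, against 205 to 249 CPM in WT. P4HTM, a prolyl hydroxylase of the ER membrane, was at 9.94 to 10.6 CPM in ALG6-/- and 24.3 to 43 CPM in the other 3 lines, against 47.4 to 57.5 CPM in WT. SLC9A8, a sodium and proton exchanger of the Golgi, was at 7.28 to 8.09 CPM in ALG6-/- and 22.6 to 27.5 CPM in the other 3 lines, against 28.3 to 30.5 CPM in WT. ACP6, a mitochondrial lysophosphatidic acid phosphatase, showed the same order, with 16.7 to 17.5 CPM in ALG6-/- and 32.8 to 48.2 CPM in the other 3 lines, against 50.3 to 52.8 CPM in WT. On the higher side, RASL10A, a Ras-like GTPase, had 8.78 to 9.28 CPM in ALG6/UGGT2-/- and 3.72 to 3.8 CPM in ALG6-/-, against 3.34 to 3.66 CPM in WT. MLLT11 had 46.1 to 63.2 CPM in ALG6-/-, 27.1 to 27.3 CPM in ALG6/UGGT1-/-, 31.9 to 38.5 CPM in ALG6/UGGT2-/- and 67.5 to 71.8 CPM in the triple knockout, against 21.7 to 21.9 CPM in WT. SLC9A8 and ACP6 were not shared after median ratio rescaling, quantile normalization or the length and GC fit. SNHG15 stayed shared only after quantile normalization, and RASL10A and MLLT11 only after median ratio rescaling. DDIT4 was not shared after median ratio rescaling, while P4HTM was shared under each scaling. The line furthest from WT was the triple knockout for 27 of the 65 shared higher genes and ALG6-/- for 21, and among the 278 shared lower genes ALG6-/- for 112 and the triple knockout for 106.

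The glycan pathway around ALG6 held no other shared gene in CPM as deposited. Of 24 genes that assemble the N-glycan precursor, 1 was called higher (4.17%) and 8 lower (33.3%) in the mean of the 4 lines. ALG6 alone was shared. Over all genes tested, 6.02% were called higher and 16.4% lower, and 0.442% were shared higher and 1.89% shared lower. The median difference of the list was -0.21 (log2), against -0.09 for all genes tested. Under the length and GC fit 2 members of the list were shared lower, ALG6 among them. ALG3, a mannosyltransferase that acts before ALG6, was called higher at 0.23 ± 0.05 (SE, log2; limma adjusted p = 0.0048), but its line differences were 0.96 in ALG6-/- and -0.07, 0.002 and 0.05 in the other lines. Without the ALG6-/- line the difference of ALG3 was -0.0082 (limma adjusted p = 0.923). ALG8, which adds the second glucose, ran between -1.28 in ALG6-/- and 0.64 in ALG6/UGGT1-/-. Of 12 oligosaccharyltransferase genes, 1 was called higher (8.33%, near the share of all genes) and 0 lower (median 0.06). Of 10 genes of glucose trimming and the calnexin cycle, 4 were called higher (40%) and 0 lower (median 0.11). Both lists held 0 shared genes in CPM as deposited.

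Counts of shared genes by list are for CPM as deposited unless another scaling is named. Of all 14692 genes, median ratio rescaling called 718 higher and 1026 lower, with 85 shared higher and 133 shared lower. Quantile normalization called 1063 and 1155, with 120 and 134 shared. The length and GC fit called 2288 and 1940 of 13365 genes, with 227 and 194 shared. List counts under those scalings are to be read beside these. Of 15 ATF6 targets and ER chaperones, 8 were called higher (53.3%) and 0 lower (median 0.32), with 0 shared. Over all genes tested, 6.02% were called higher and 16.4% lower. Under the length and GC fit 1 was shared, SDF2L1. CALR, the lectin chaperone calreticulin, was at 655, 828 and 765 CPM in ALG6-/-, 1186, 1005 and 1023 CPM in ALG6/UGGT1-/-, 441, 397 and 379 CPM in ALG6/UGGT2-/- and 2282, 2344 and 2379.7 CPM in the triple knockout, against 425, 434 and 508 CPM in WT. ALG6/UGGT2-/- overlapped WT while the other 3 lines lay above it, and the mean difference was 1.04 ± 0.08 (SE, log2; limma adjusted p = 5.0e-06). SDF2L1, a cofactor of ER chaperones, was called at 0.75 ± 0.07 (SE, log2; limma adjusted p = 3.8e-05), with 0.04 in ALG6/UGGT2-/-. CRELD2, secreted under ER stress, was called at 0.49 ± 0.05 (SE, log2; limma adjusted p = 6.3e-05), with -0.05 in ALG6-/-. HSPA5, the chaperone BiP, which was named after its values were seen, had 1031, 334 and 582 CPM in ALG6-/-, 1036, 1086 and 1069.5 CPM in ALG6/UGGT1-/-, 475, 527 and 513 CPM in ALG6/UGGT2-/- and 1464, 1377 and 1421 CPM in the triple knockout, against 521, 516 and 392 CPM in WT. ALG6/UGGT2-/- and ALG6-/- overlapped WT. Its mean difference was 0.79 ± 0.22 (SE, log2; limma adjusted p = 0.0229), a call that was lost without WT replicate 1, 2 or 3, at limma adjusted p = 0.0539, 0.0592 and 0.106 with differences of 0.86, 0.85 and 0.66 (log2). The HSPA5 call was also lost without ALG6/UGGT1-/- (0.66, limma adjusted p = 0.0742) and without the triple knockout (0.52, limma adjusted p = 0.234). Of 24 IRE1 and XBP1 targets, 2 were called higher (8.33%) and 3 lower (12.5%), near the shares of all genes. Their median was 0.0075, with 0 shared. Of 26 genes of ER-associated degradation, 5 were called higher (19.2%) and 2 lower (7.69%), with a median of -0.01 and 0 shared.

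Of 25 PERK and ATF4 targets, 13 were called lower (52%) and 2 higher (8%), with a median of -0.37. DDIT4 alone was shared. Over all genes tested, 16.4% were called lower and 6.02% higher. CHAC1, which degrades glutathione, was called lower at -0.95 ± 0.08 (SE, log2; limma adjusted p = 9.1e-06), with -3.75 in ALG6-/- and 0.60 in ALG6/UGGT2-/-. TRIB3, a pseudokinase induced by ATF4, was called lower at -0.97 ± 0.09 (SE, log2; limma adjusted p = 2.9e-05), with -3.33 in ALG6-/- and 0.40 in ALG6/UGGT2-/-. CTH, which makes cysteine, was called lower at -0.71 ± 0.07 (SE, log2; limma adjusted p = 1.9e-05), with -2.54 in ALG6-/- and 0.50 in ALG6/UGGT2-/-. All 3 calls were lost without the ALG6-/- line, where the differences were -0.02, -0.18 and -0.11 for CHAC1, TRIB3 and CTH (limma adjusted p = 0.898, 0.201 and 0.299). After median ratio rescaling, 6 members of the list were called lower and 0 were shared.

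**Figure D3:**
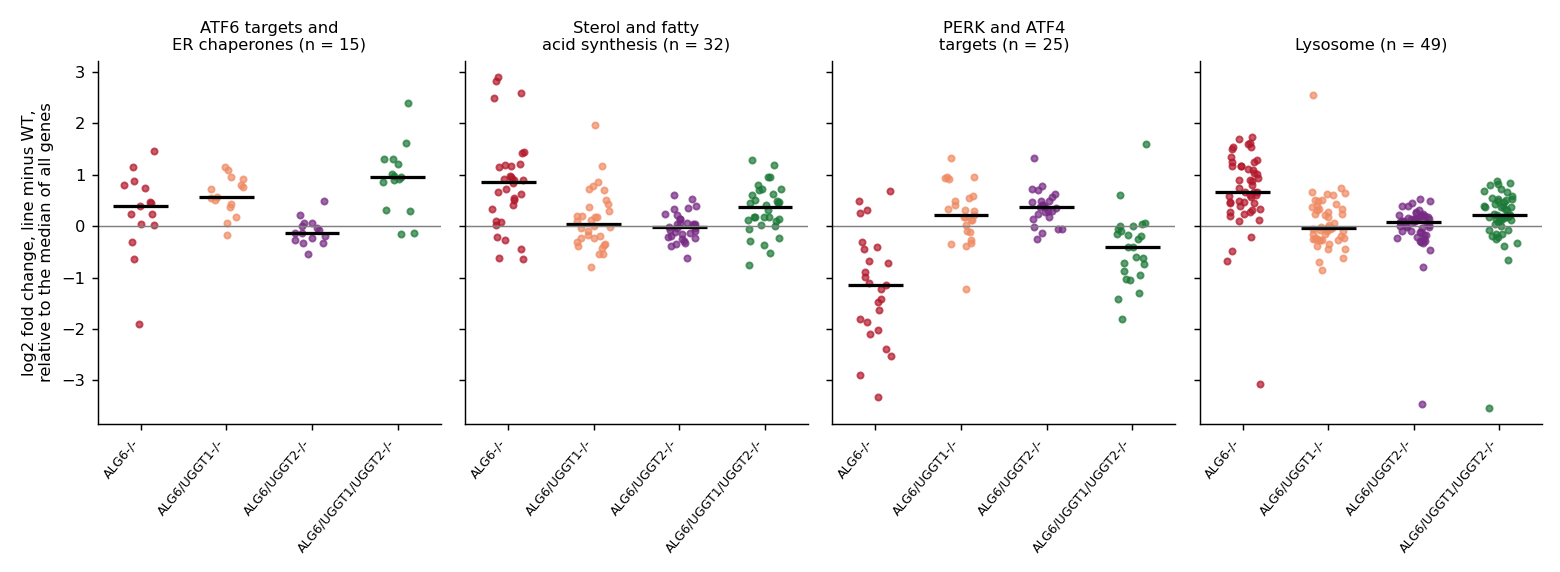
Members of gene lists in each ALG6-lacking line, as log2 fold change of the line against WT after subtracting the median of all genes in that line; each point is a gene and each bar the median of the list. The ER chaperones have a median of 0.97 in the triple knockout and -0.13 in ALG6/UGGT2-/-, and the ATF4 targets -1.15 in ALG6-/- and 0.37 in ALG6/UGGT2-/-.

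The sterol and lysosome lists held shared genes. Of 32 genes of sterol and fatty acid synthesis, 11 were called higher (34.4%) and 2 lower (6.25%), with a median of 0.15. IDI1 and SREBF2 were among the 3 shared (9.38%), all higher. Over all genes tested, 6.02% were called higher, 16.4% lower and 0.442% shared higher. FDFT1, squalene synthase, was called higher at 0.76 ± 0.06 (SE, log2; limma adjusted p = 1.1e-05) but not shared, with 2.05 in ALG6-/-, -0.15 in ALG6/UGGT1-/-, -0.11 in ALG6/UGGT2-/- and 1.27 in the triple knockout. Relative to all genes, the median of the sterol list was 0.87 in ALG6-/-, 0.05 in ALG6/UGGT1-/-, -0.03 in ALG6/UGGT2-/- and 0.37 in the triple knockout. The sterol list held 3 shared higher genes after median ratio rescaling, 5 after quantile normalization and 2 under the length and GC fit. That fit called 17 of the list higher and 2 lower, beside 2288 higher and 1940 lower of all 13365 genes it covered. Over all genes, these scalings gave 85, 120 and 227 shared higher genes in that order. Of 49 lysosomal genes, 17 were called higher (34.7%) and 5 lower (10.2%), with a median of 0.22. NEU1, ARSA and ATP6V0A1 (6.12%) were shared higher. NEU1, the lysosomal sialidase, was at 105 to 131 CPM in ALG6-/- and 60.9 to 81.4 CPM in the other 3 lines, against 46.9 to 58.8 CPM in WT. ARSA, which degrades sulfatides, was at 25.5 to 35.8 CPM (median 30.2) in the 12 ALG6-lacking libraries, against 22.6, 21.6 and 25.3 CPM in WT. ATP6V0A1, a proton pump subunit, was at 104 to 129 CPM (median 116) in the 12 ALG6-lacking libraries, against 97, 98.5 and 95.8 CPM in WT, and its limma call was lost after median ratio rescaling, where its difference was 0.32 (limma adjusted p = 0.0842) against 0.24 as deposited. NEU1 and ARSA were shared under none of the other scalings, while ATP6V0A1 stayed shared after quantile normalization. Under the length and GC fit 30 lysosomal genes were called higher, 3 lower and 5 were shared higher. The counts of that fit over all genes, given above, are the background here and for the UGGT substrates below. LAMP1, a membrane glycoprotein of the lysosome, was called at 0.47 ± 0.07 (SE, log2; limma adjusted p = 6.8e-04), with 1.10 in ALG6-/- and 0.02 in ALG6/UGGT1-/-. CTSZ, a cathepsin, shows how far an average could lie from a line: its mean of -1.97 ± 0.08 (SE, log2; limma adjusted p = 7.7e-08) joined -3.52, -3.42 and -3.56 in 3 lines to 2.62 in ALG6/UGGT1-/-. The list of glycoproteins named as UGGT substrates was taken from the study and is shorter than the full list given there. Of 66 tested, 14 were called higher (21.2%) and 4 lower (6.06%), with a median of 0.11. ARSA alone (1.52%) was shared in CPM as deposited. Under the length and GC fit 30 were called higher and 5 lower, and 6 were shared higher and 1 lower.

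Beside ID1 and ID3 (6.45%), the list of Notch and ID genes held 0 other shared genes in CPM as deposited. Of its 31 genes, 6 were called higher (19.4%) and 5 lower (16.1%), with a median of -0.02. Over all genes tested, 6.02% were called higher, 16.4% lower and 0.442% shared higher. The list held 4 shared higher genes after median ratio rescaling, 4 after quantile normalization and 3 under the length and GC fit. Over all genes, these scalings gave 85, 120 and 227 shared higher genes in that order. BMP2, a BMP ligand, was called higher at 1.54 ± 0.15 (SE, log2; limma adjusted p = 3.5e-05), with 0.63 in ALG6-/-, 2.33 in ALG6/UGGT1-/-, 1.72 in ALG6/UGGT2-/- and a value between these in the triple knockout. SMAD6, an inhibitor induced by BMP signals, was called higher at 0.83 ± 0.09 (SE, log2; limma adjusted p = 7.2e-05), with 1.62 in ALG6-/-, -0.07 in ALG6/UGGT1-/-, 0.64 in ALG6/UGGT2-/- and 1.15 in the triple knockout. Neither was shared: the lowest ALG6-lacking library of BMP2 had 10.34 CPM, against 10.35 CPM in the highest WT library, and that of SMAD6 5.25 CPM, against 6.353 CPM. BMP2 thus missed the rule by a narrow margin in CPM as deposited, and it was shared higher under each of the 3 other scalings, at 1.62 after median ratio rescaling, 1.68 after quantile normalization and 1.63 under the length and GC fit. SMAD6 was not shared under any of them.

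Of 22 p53 targets, 0 were called higher and 6 lower (27.3%), with a median of -0.23. DDB2 and BTG2 (9.09%) were shared lower in CPM as deposited. Over all genes tested, 6.02% were called higher, 16.4% lower and 1.89% shared lower. After median ratio rescaling or quantile normalization 0 members of the list were shared. Under the length and GC fit 1 was shared lower, DDB2, and 1 higher. DDB2, a DNA damage sensor, was at 24.7 to 39.8 CPM (median 32.9) in the 12 ALG6-lacking libraries, against 45.7, 45.3 and 53.1 CPM in WT. BTG2, an antiproliferative gene, was at 24 to 30.9 CPM (median 28.1) in the 12 ALG6-lacking libraries, against 33.1, 33.7 and 32.5 CPM in WT, and its limma call was lost after median ratio, quantile or length and GC scaling and without WT replicate 1 or 2. Of 28 interferon response genes, 8 were called higher (28.6%) and 5 lower (17.9%), with a median of -0.0017. BST2, which tethers virions to the cell surface, was the one shared, at 1.87 to 4.7 CPM (median 3.56) in the 12 ALG6-lacking libraries, against 5.51, 5.75 and 4.75 CPM in WT. It was shared under none of the other scalings, and its call was lost after quantile normalization (-0.43, limma adjusted p = 0.154) and without the triple knockout (-0.44, limma adjusted p = 0.0549). Under the length and GC fit 2 other interferon response genes were shared higher. Of 17 cytosolic heat shock genes, 4 were called higher (23.5%) and 0 lower (median 0.0004), with 0 shared. HSPA1A and HSPA1B, near-identical genes that cannot be separated with certainty, were at 3.41 and 3.65 (log2) in ALG6-/-, and their means without that line lay at -0.41 and -0.28.

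The other lists held few shared genes or none. Over all genes tested, 6.02% were called higher and 16.4% lower. Of 35 proliferation genes, 5 were called higher (14.3%) and 1 lower (2.86%), with a median of 0.06 and 0 shared. MCM5, a subunit of the replication helicase, was called at 0.67 ± 0.06 (SE, log2; limma adjusted p = 1.9e-05). Of 34 integrins and cadherins, 1 was called higher (2.94%) and 2 lower (5.88%), with a median of 0.07. ITGA7 was shared higher and CDH4 shared lower. Of 25 clustered protocadherins, 4 were called higher (16%) and 1 lower (4%), with a median of 0.21. PCDHGC3 was shared higher and PCDHGB5 shared lower, values that are uncertain because cluster members share exons. After quantile normalization 12 were called higher and 0 lower, and under the length and GC fit 11 and 1. Over all genes, these scalings called 1063 of 14692 and 2288 of 13365 higher. PCDHGB5 was shared under none of the other scalings, and its call was lost after quantile normalization (-0.38, limma adjusted p = 0.132). Of 43 collagens and matrix genes, 1 was called higher (2.33%) and 7 lower (16.3%, near the share of all genes), with a median of -0.03. Of 30 immediate early genes, 3 were called higher (10%) and 8 lower (26.7%), with a median of -0.21. Of 15 imprinted genes, 2 were called higher (13.3%) and 1 lower (6.67%), with a median of 0.04. Of 2 cancer-testis antigens, 1 was called higher and 0 lower (median -0.02). These 4 lists held 0 shared genes. GATA3 was the one shared gene of the kidney and HEK293 markers. Of the 16 tested, 5 were called higher (31.2%) and 2 lower (12.5%), with a median of -0.03. The markers of other cell types held 0 shared genes. Of the 8 tested, 1 was called higher (12.5%) and 2 lower (25%), with a median of 0.05. Medians slightly below 0 for ER-associated degradation, interferon response, matrix, Notch and ID, cancer-testis and kidney genes turned positive under each of the 3 other scalings. Lists with 0 shared genes as deposited gained 1 or 2 under the length and GC fit: 1 each for the calnexin cycle, ER-associated degradation, heat shock and imprinted genes and 2 for proliferation.

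The shared higher genes were not spread evenly over the genome. GENCODE placed 62 of them, and 17 (27.4%) lay on chromosome 22, which holds 2.4% of the annotated genes tested. On that chromosome 5.3% of 321 tested genes were shared higher, against 0.345% of genes elsewhere, and 2 were shared lower. The 17 genes included SREBF2, A4GALT, RBX1, RASL10A and ARSA, described above, and the apolipoprotein gene APOL2, the nuclear envelope gene SUN2, the splicing factor genes SF3A1 and SNRPD3 and the kinase gene PIM3. Their mean differences were 0.20 to 0.78 (log2) with a median of 0.41, and 0 of them reached 1.5-fold in every line. The whole chromosome moved in the same direction: relative to all genes, its median gene was 0.25 above WT (log2) in ALG6-/-, 0.12 in ALG6/UGGT1-/-, 0.25 in ALG6/UGGT2-/- and 0.27 in the triple knockout. Above the median of all genes in every line were 103 of its genes (32.1%), against 7.21% of all genes. Each window of 5 Mb along it had a positive median in all 4 lines.

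The place of ALG6-/- in this pattern changed once length and GC content were fitted out of each library. The median of chromosome 22 relative to WT then stood at -0.03 (log2) in ALG6-/-, 0.25 in ALG6/UGGT1-/-, 0.31 in ALG6/UGGT2-/- and 0.28 in the triple knockout. By library, taken around the mean of the 15, it was -0.24, -0.14 and -0.22 in ALG6-/- and 0.06 to 0.19 in the 9 libraries of the other 3 lines, against -0.20, -0.20 and -0.13 in WT. The 9 libraries stood apart from WT, and those of ALG6-/- overlapped it. As deposited, the 12 ALG6-lacking libraries ran between -0.19 and 0.28, against -0.30 to -0.06 in WT, with overlap. Without the ALG6-/- line, 62 of 346 shared higher genes lay on chromosome 22, a smaller share than the 17 of 65 with it. Omitting any line makes the rule easier to meet. The counts were 36 of 241 without ALG6/UGGT1-/-, 22 of 146 without ALG6/UGGT2-/- and 19 of 85 without the triple knockout. Chromosome copy number was not measured, and its part in the result was not tested. On chromosome 14 the median gene was at -0.37 in ALG6-/- and -0.31 in the triple knockout but at 0.14 in each double knockout, and 1 gene was shared higher and 6 lower of 450.

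**Figure D4:**
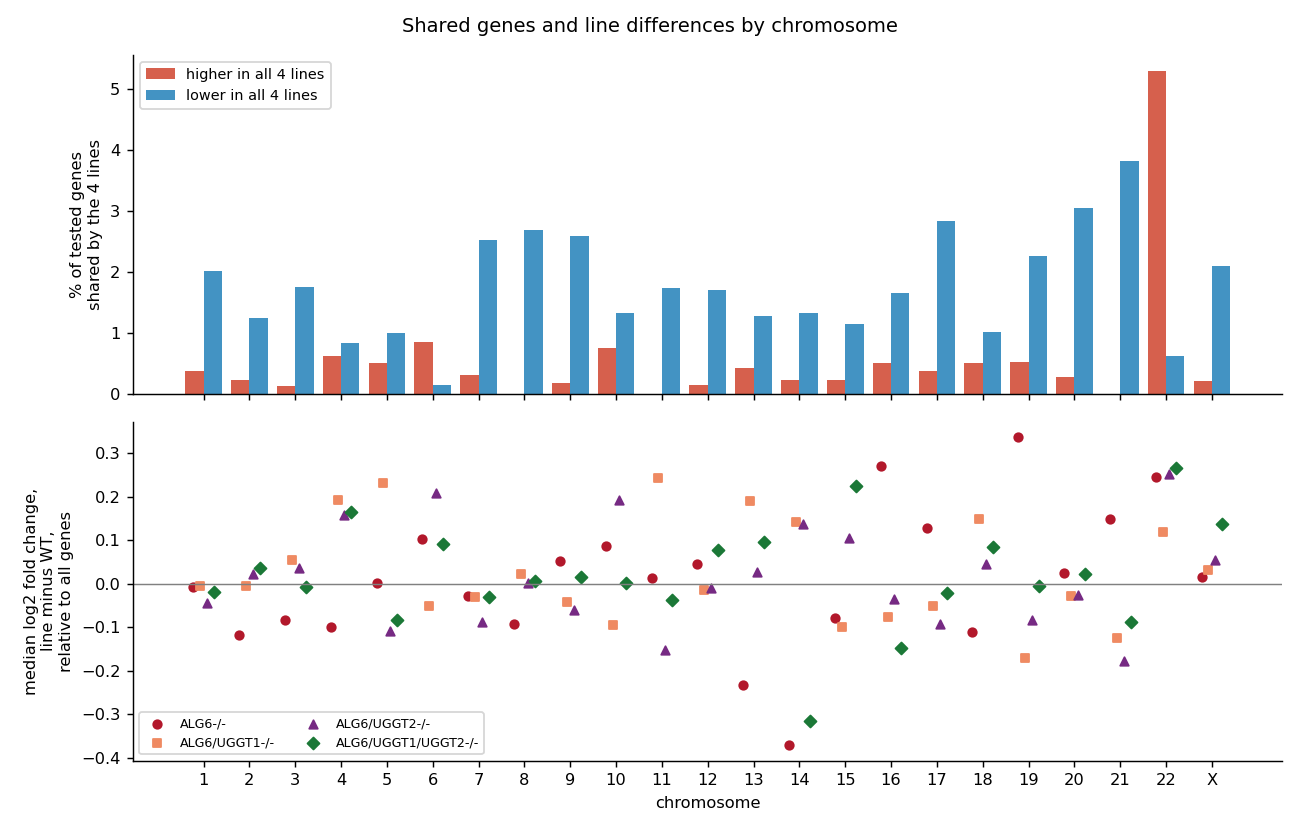
Shared genes and line differences by chromosome: the percentage of tested genes that were higher or lower in all 12 ALG6-lacking libraries, and the median log2 fold change of each line against WT relative to all genes. Chromosome 22 stands out, with 5.3% of its genes shared higher and medians of 0.12 to 0.27 in the 4 lines. Chromosome X also had a positive median in each line, at 0.02 to 0.14. With length and GC content fitted out, the median of chromosome 22 in ALG6-/- was -0.03.

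The shared genes differed from the rest in transcript length and base composition. The median transcript had 2910 bases among the shared higher genes and 2424 bases among the shared lower genes, against 3398 bases for all genes tested. Median GC content was 55.1% and 56.0%, against 48.8%. Both are properties along which libraries of the same line differed, and their part in the result was not tested beyond the scalings that follow.

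The set of shared genes turned on how the libraries were scaled. Of all shared genes, 19% were higher in CPM as deposited, 39% after median ratio rescaling, 47.2% after quantile normalization and 53.9% with length and GC content fitted out. The share of limma calls that were higher moved likewise, with 26.9% as deposited and 41.2%, 47.9% and 54.1% under the other scalings. The median of all genes relative to WT was -0.44 (log2) in ALG6-/- and 0.07, 0.03 and -0.03 in ALG6/UGGT1-/-, ALG6/UGGT2-/- and the triple knockout. For the mean of the 4 lines it was -0.09 as deposited, -0.01 after median ratio rescaling and within 0.01 of 0 under the other scalings. Of the 343 shared genes, 122 stayed shared after median ratio rescaling, 112 after quantile normalization and 143 of 298 with annotation under the length and GC fit. Under all 4 scalings 44 genes were shared, 13 higher and 31 lower, a set counted after the data were seen. It held 9 of the 15 higher genes of the size rule (ID3, ID1, GMEB1, RAB32, ARHGEF5, ARHGEF35, GATA3 and RBX1 among them) and 11 of the 15 lower ones (TEX14, ALG6, MYOM2, PCK1, SYCE2, MNX1-AS1, FZD10, TRIB1, RNF122, MSX1 and HOXC4). Outside the set were ARSE, IDI1, F10, EMC10, PCLAF and A4GALT on the higher side and F8A1, SCN4B, BARHL2 and TERT on the lower side. MSX2, MNX1 and P4HTM were also among the 44, and of the chromosome 22 genes it held 3, APOL2, TMEM184B and RBX1.

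**Figure D5:**
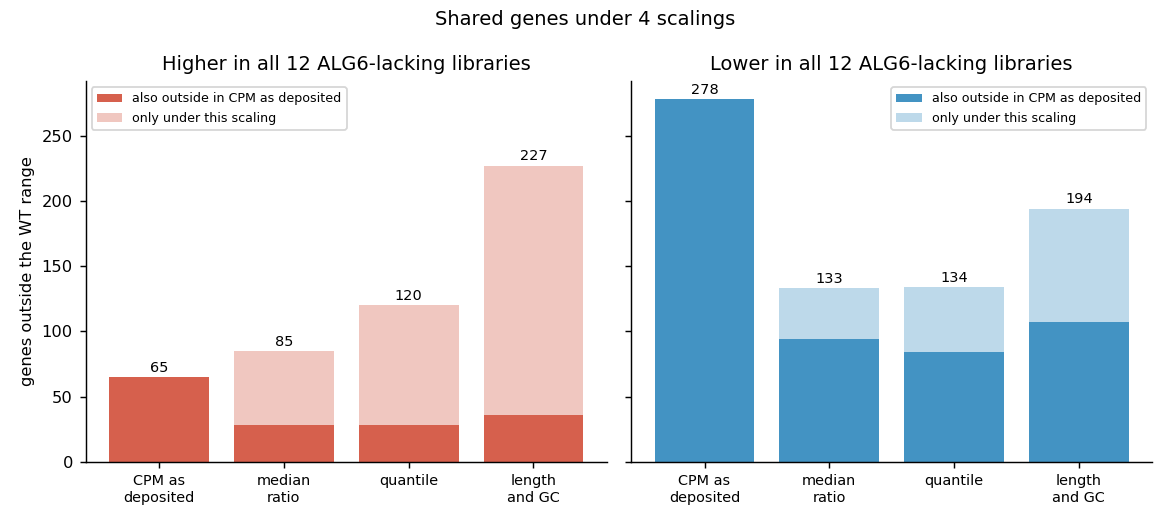
Number of genes for which all 12 ALG6-lacking libraries lay above or below the range of the 3 WT libraries under 4 scalings, with the part that was also shared in CPM as deposited. The lower genes number 278 as deposited, 133 after median ratio rescaling, 134 after quantile normalization and 194 under the length and GC fit, and the higher genes 65, 85, 120 and 227.

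Since each genotype was 1 clonal line, the contrast was also fitted on the line means, with WT assumed to vary as the lines do. Limma called 0 genes in that fit, with 4 higher and 10 lower at an unadjusted p under 0.05, and ALG6 itself was not called. The p-values over libraries measure the spread between biological replicates of these lines, not the spread between clones.

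Promoters of the shared genes were searched for stress and sterol elements on both strands of RefSeq windows (250 bases before to 50 after each listed start, GRCh38.p14). The windows matched 52 shared higher, 187 shared lower and 10855 tested genes. The ATF4 composite element TGATGNAA was found in 1.92% of shared higher and 1.07% of shared lower genes, against 2.79% of all tested. The ER stress element, CCAAT and CCACG 9 bases apart, was found in 0 shared genes, against 0.157% of all tested. The UPR element TGACGTG, whose letters overlap the cAMP element in all but the last bases, was found in 0 shared higher genes and 1.6% of shared lower genes, against 3.34% of all tested. The cAMP element TGACGTCA was found in 5.77% and 1.07%, against 3.88%, and the sterol element, TCACCCCAC or TCACGCCAC, which was added after the data were seen, in 1.92% and 0.535%, against 0.755%. These shares rest on few genes. The cAMP element stood in 3 shared higher genes, EMC10, GTF3C1 and LRRC8A, and the sterol element in 1, SREBF2. Shown from RefSeq are stretches of EMC10 (chr19:50476257-50476416, plus strand), which holds the cAMP element 3 times, and of SREBF2 (chr22:41832925-41833024, plus strand), the chromosome 22 gene with the sterol element; capitals mark the elements.
EMC10: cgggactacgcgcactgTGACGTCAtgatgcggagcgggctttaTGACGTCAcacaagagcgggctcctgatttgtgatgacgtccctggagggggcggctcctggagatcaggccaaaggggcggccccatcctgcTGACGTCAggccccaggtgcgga
SREBF2: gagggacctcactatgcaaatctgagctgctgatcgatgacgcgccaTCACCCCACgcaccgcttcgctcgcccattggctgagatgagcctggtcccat
Such a match is a description of letters in these windows and shows nothing about binding.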

How the data were processed

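The deposited table held CPM values, which the authors made from reads aligned to hg38 with STAR, quantified with RSEM and scaled with edgeR (versions not given in the sources used here). It listed 42141 genes in 15 libraries, each pooling 4 sequencing lanes; 8 columns without a header were not used. Depth was estimated from the most frequent low CPM value above 0, taken as the worth of 1 read. Only 88.7% to 90.2% of low values were whole multiples of it (within 0.02), so no count test was run. Genes reaching 1 CPM in 3 or more of the 15 libraries were fitted on log2(CPM + 0.5) with limma 3.58.1 (R 4.3.3, trended variance) over all 15 libraries, with the contrast of the mean of the 4 lines minus WT, an F test over the 4 lines and Benjamini-Hochberg adjustment over all genes (threshold 0.05). Fold changes on this scale understate those of low genes. The labels call the replicates biological and do not state whether they were separate cultures.

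The shared genes and the 23 gene lists were chosen with earlier results of these data known. Named by rule were ALG6, UGGT1 and UGGT2; of the shared genes called and at 5 CPM or more, the 15 per direction with the largest smallest-line change; of those at 1.5-fold or more in every line, the 8 per direction of highest CPM; up to 4 genes per list with the smallest adjusted p; and the 5 per direction with the largest F. Clone identifiers and dates were left out, and 1 gene that the rules name is not reported here. Positions, lengths and GC contents came from GENCODE 44 (GRCh38), and promoters from RefSeq. Alternatives were other pseudocounts, filters and scalings, a spline fit of length and GC content (5 degrees of freedom each), a replicate block, line means as units, and omission of libraries or lines. Scripts were tested on simulated data.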

Additional observations from a re-analysis of the deposited data

Results flagged for a closer look

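Of the 343 shared genes, 263 differed among the 4 ALG6-lacking lines (limma F test, adjusted p under 0.05), so the size of the difference from WT was not the same in each line. Among the genes named for the widest differences, the F value was 148 for ID1 (1.20 in ALG6/UGGT2-/- up to 3.65 in ALG6-/-), 103 for ID3 (1.53 in ALG6/UGGT1-/- up to 3.12 in ALG6-/-), 70.2 for RASL10A (0.11 in ALG6-/- up to 1.28 in ALG6/UGGT2-/-) and 59.8 for MLLT11 (0.32 in ALG6/UGGT1-/- up to 1.66 in the triple knockout). On the lower side it was 218 for DDIT4 (-2.06 in ALG6-/- and -0.21 in ALG6/UGGT2-/-), 163 for SLC9A8 (-1.83 and -0.18 in the same lines), 160 for P4HTM (-2.26 in ALG6-/- and -0.29 in ALG6/UGGT1-/-), 159 for ACP6 (-1.57 in ALG6-/- and -0.17 in ALG6/UGGT2-/-) and 147 for SNHG15 (-2.26 and -0.28 in the same lines). Among all genes tested, 82.5% differed among the lines by the same test. SLC9A8 and ACP6 were shared only in CPM as deposited. SNHG15 stayed shared elsewhere only after quantile normalization, and RASL10A and MLLT11 only after median ratio rescaling.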

How the results depend on the processing

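Under median ratio rescaling 1026 genes were called lower, 133 were shared lower and 139 shared genes differed among the lines. Under quantile normalization 1155 were called lower, 120 were shared higher and 134 lower, and 163 of these differed among the lines. With length and GC content fitted out, 2288 genes were called higher and 227 were shared higher, 34 of them on chromosome 22. A minimum log2 difference of 1 left 20 higher and 93 lower calls, and at least 2-fold in every line left 3 and 5 shared genes with 0 on chromosome 22. Line means as units gave 0 higher and 0 lower calls; the cause was not tested. Without ALG6-/-, 1410 genes were called higher, 346 were shared higher and 634 lower, with 62 on chromosome 22. Without ALG6/UGGT1-/- the shared counts were 241 and 714, with 36 on chromosome 22. Without ALG6/UGGT2-/- they were 146 and 627. Without the triple knockout 416 genes were called higher and 1362 lower. Omitting any line or library makes the shared rule easier to meet.

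Leaving out single libraries gave 547 to 1056 higher calls (lowest without WT replicate 1, and 589 without WT replicate 2), 1551 to 2737 lower calls (lowest without WT replicate 2), 66 to 160 shared higher genes, 280 to 726 shared lower genes, 17 to 28 on chromosome 22, 252 to 651 shared genes that differed among the lines and 11255 to 13174 genes that differed among the lines. The highest shared counts were those without WT replicate 3, and without it and ALG6-/- replicate 2 they were 185 and 781, with 32 on chromosome 22. The cause was not tested.

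Of 2183 values for 73 named genes, 2083 kept their direction and side of the threshold, 91 lost the call, 6 gained it and 3 reversed. With line means as units, 71 of the 73 genes lost the call and 2 stayed the same, so most of the 91 losses came from that setting. The 3 reversed without the ALG6-/- line: HSPA1A to -0.41, HSPA1B to -0.28 and ALG3 to -0.0082 (log2). Replicate numbers did not pair the samples, since libraries correlated best with their own number in 21 of 60 cases; with a replicate block, 2171 genes were called lower, 11520 differed among the lines and 256 of the shared genes did, and no count moved by more than 1.5 times. Low genes limit precision: 4 shared higher and 50 shared lower genes were under 5 CPM in both groups.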
